A study of Caenorhabditis elegans with 2 samples.

Results

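Binding of FAX-1 was examined at 39 genes that encode the sarcomere of body wall muscle, its attachments to the cell membrane and basement membrane, and a pair of muscle transcription factors. The genes were taken as a named list, of 19973 protein-coding genes on the nuclear chromosomes. They comprise 10 thick filament genes, 16 thin filament genes, 11 attachment genes of dense bodies and M-lines, and 2 transcription factor genes. A region was given to a gene when its summit lay within 5000 bp of that gene's 5′ end and no other protein-coding 5′ end was closer. By this rule 55 of 12691 nuclear regions belonged to 30 of the 39 genes.

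The series holds 1 group of whole hermaphrodite embryos of C. elegans strain OP164, late embryos taken 4 h after synchronization by egg bleaching, with 2 biological replicates. All animals carried a transgene for FAX-1 with a C-terminal GFP-FLAG tag, and chromatin sheared by sonication was precipitated with an antibody against GFP. Both replicates were called against a control file that was not analysed here, and an untagged strain was not analysed here. The values come from all cells of the embryo, so the number of bound cells and the binding per cell cannot be told apart, and there is no expression level with which to check the muscle markers.

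FAX-1 is a nuclear hormone receptor of the family of vertebrate photoreceptor nuclear receptors and is best known for its role in axon guidance and neuropeptide expression of interneurons. Body wall muscle is the obliquely striated muscle that moves the worm. Its myosin thick filaments are anchored at M-lines and its actin thin filaments at dense bodies, and both structures connect through integrin complexes to the basement membrane. HLH-1 and UNC-120 are transcription factors of the embryonic muscle lineages.

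Sequence at the summits is shown for 3 of the genes with the strongest signal, and for mlc-2, act-2 and unc-52 as a thick filament, a thin filament and an attachment gene with weaker regions upstream of the gene. Each is the summit with 75 bp on either side, read from the RefSeq WBcel235 (ce11) genome on the strand of the gene, with matches to the searched motifs in capitals. The first 3 windows are unc-97 at chrX:5591923-5592073 (+), unc-112 at chrV:14697026-14697176 (−) and unc-60 at chrV:1474732-1474882 (+). The others are mlc-2 at chrX:17456886-17457036 (−), act-2 at chrV:11078507-11078657 (−) and unc-52 at chrII:14684525-14684675 (−). Their GC content ran from 47.0% at unc-52 to 60.9% at unc-97. The capitals mark a pair of overlapping GAGAGA matches on the other strand at unc-112 and a CArG box, the binding sequence known for serum response factor, at act-2.
unc-97: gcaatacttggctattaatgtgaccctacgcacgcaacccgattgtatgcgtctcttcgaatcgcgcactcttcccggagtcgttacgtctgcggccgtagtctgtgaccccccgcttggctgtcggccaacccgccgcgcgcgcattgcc
unc-112: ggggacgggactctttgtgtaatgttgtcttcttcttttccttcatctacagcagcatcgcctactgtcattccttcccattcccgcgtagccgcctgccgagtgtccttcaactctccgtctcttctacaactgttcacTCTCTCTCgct
unc-60: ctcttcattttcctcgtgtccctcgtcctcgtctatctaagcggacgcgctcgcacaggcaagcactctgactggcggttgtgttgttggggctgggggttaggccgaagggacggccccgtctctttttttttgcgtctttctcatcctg
mlc-2: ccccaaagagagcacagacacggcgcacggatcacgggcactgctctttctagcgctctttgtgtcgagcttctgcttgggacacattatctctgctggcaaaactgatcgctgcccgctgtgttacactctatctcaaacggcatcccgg
act-2: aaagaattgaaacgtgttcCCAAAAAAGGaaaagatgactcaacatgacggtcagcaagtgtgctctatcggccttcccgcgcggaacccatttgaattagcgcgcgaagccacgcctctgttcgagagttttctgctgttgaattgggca
unc-52: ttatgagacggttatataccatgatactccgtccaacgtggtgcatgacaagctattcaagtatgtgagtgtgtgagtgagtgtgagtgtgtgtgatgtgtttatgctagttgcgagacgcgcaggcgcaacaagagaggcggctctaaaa

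The 55 summit windows were searched on both strands for 9 motifs. GAGAGA was in 14 windows (25.5%), against 24.9% of the windows of the reproducible list and 17.1% of all 12691 windows. AAGTCA, a site of the kind bound by nuclear receptors, was in 1 window (1.82%), at unc-45, against 5.06% of all windows, and that match was part of the only AAAGTCA match. AGGTCA and CACCTG were in 0 of the 55 windows, for which the upper limit of the 95% Wilson interval was 6.53%, against 4.13% and 4.60% of all windows. CAGCTG, an E-box form known for myogenic bHLH factors, was in 3 windows (5.45%), at lev-11, pat-4 and deb-1, against 4.02% of all windows. The CArG box was in the act-2 window alone (1.82%), against 0.914% of all windows. TGATAA and TAATTA were each in 2 windows (3.64%, 95% Wilson interval 1.00% to 12.3%), against 9.26% and 8.05% of all windows. Over the reproducible list these 2 motifs were in 4.47% and 4.34% of windows. In that list AAGTCA was in 3.32%, AAAGTCA in 1.53%, AGGTCA in 4.98% and CACCTG in 2.55%. CAGCTG was there in 4.09% and the CArG box in 0.255%. The median GC content of the windows was 45.7%, against 40.4% over all windows and 47.0% over the reproducible list, and the part of base composition in these counts was not tested.

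Regions came from a loosely called list of the pooled replicates that the authors deposited as peaks together with background, and these are called candidate regions here. Overlapping rows were merged and represented by the strongest row. A region was called final when it overlapped the list filtered for reproducibility by the irreproducible discovery rate. The final list held exactly the 830 pooled rows with a signal of at least 98.3, so a final region is also a region of high pooled signal. The signal is the deposited score of a peak caller that is not named, and its lowest value was 31.6 in the pooled list, 21.0 in the list of replicate 1 and 12.7 in that of replicate 2. Signals of different lists were therefore compared by rank, out of 13841 pooled rows, 15446 rows of replicate 1 and 18555 rows of replicate 2. The replicate values of a region are those of the strongest replicate row that overlapped it. Distances are those of the pooled summit, from which the summit of a replicate row can differ.

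Most muscle genes had a candidate region, and few had a final region. In the pooled list 30 of 39 (76.9%) had a candidate region, against 38.4% of all protein-coding genes. In the lists of single replicates the counts were 31 (79.5%) in replicate 1, against 42.2% of all genes, and 34 (87.2%) in replicate 2, against 47.9%. A final region was nearest to 4 of the 39 genes (10.3%), against 3.50% of all genes. These were unc-54, unc-60, unc-97 and unc-112. Counted over regions, the final share was close to that of all regions. Of the 55 regions of the muscle genes 4 were final (7.27%), against 723 of all 10969 assigned regions (6.59%). Among each replicate's own strongest 830 rows, replicate 1 gave the same 4 genes, against 3.54% of all genes, and replicate 2 gave 2 genes (5.13%), unc-60 and unc-95, against 3.44%. With 1 group, these shares were compared as descriptions and carry no test.

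The stretch of genome that counted towards a gene was longer for the muscle genes, with a median of 5506 bp against 3858 bp over all genes. Per kilobase of that stretch, the muscle genes held 0.254 pooled regions against 0.127 for all genes. The same rate was 0.268 against 0.142 in replicate 1 and 0.287 against 0.168 in replicate 2. The higher density was thus seen in both replicates, which share the control, after allowing for the length searched. Thin filament genes had 0.321 regions per kilobase, attachment genes 0.222 and thick filament genes 0.198, and this order was the same in both replicates. Of the 27 thin filament regions, many belonged to actin genes, with 5 at act-4, 3 at act-1, 2 at act-3 and 1 at act-2. The rate without the actin genes was not computed.

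**Figure D1:**
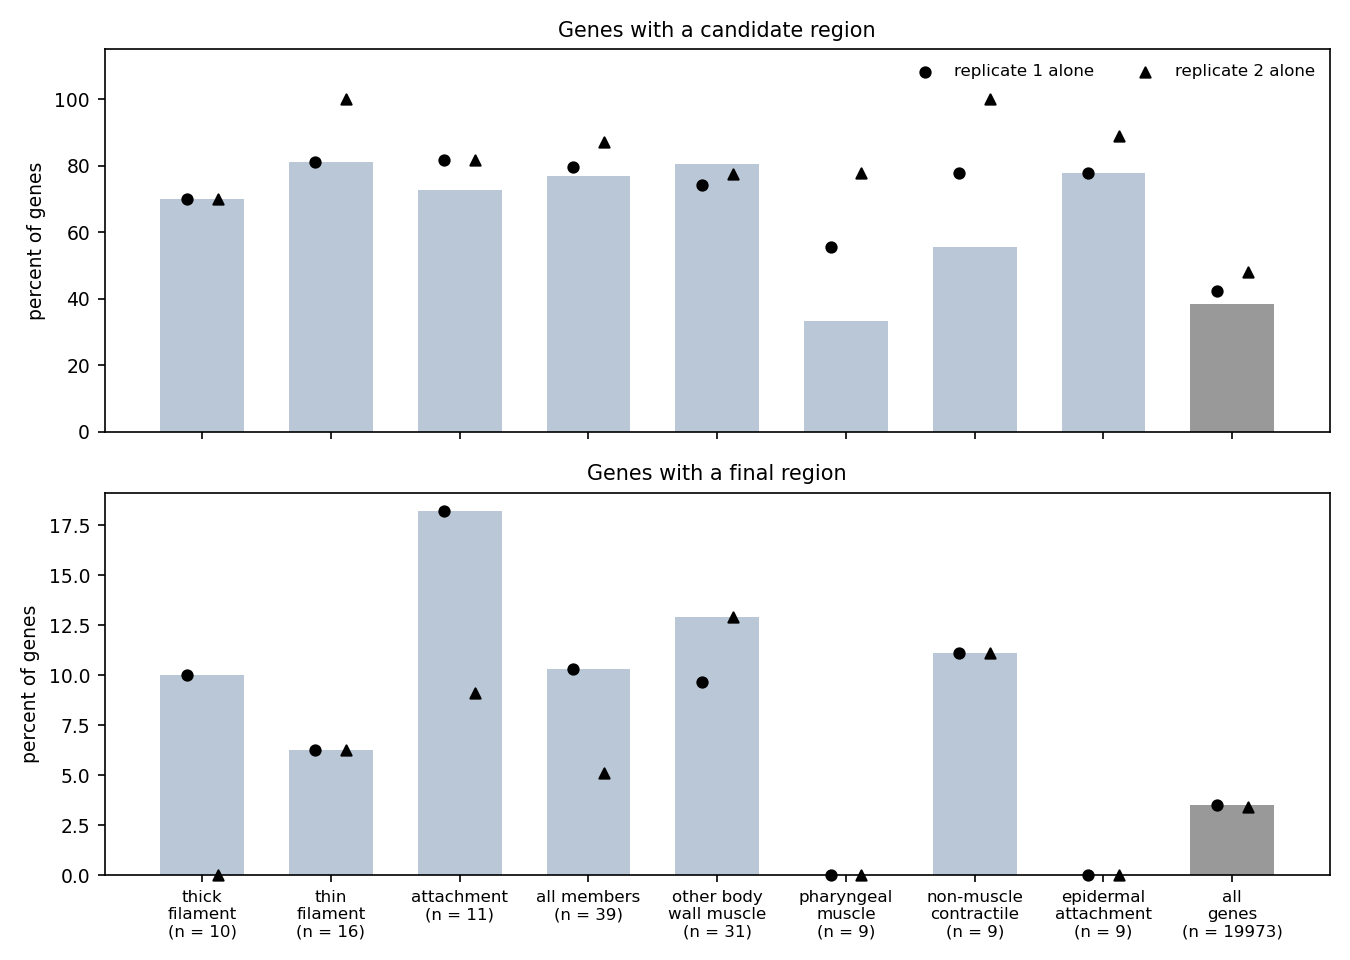
Percent of genes with a candidate region (top) and with a final region (bottom) in each gene list, with the number of genes under each bar. Bars are the pooled list. Circles and triangles are the lists of replicates 1 and 2, which in the bottom panel stand for genes with a region among that replicate's own strongest 830 rows. The bar of the 39 muscle genes stands at 76.9% in the top panel and 10.3% in the bottom panel, beside 38.4% and 3.50% for all genes.

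In every class most genes had a candidate region. The pooled list gave 7 of 10 thick filament genes (70.0%), 13 of 16 thin filament genes (81.2%), 8 of 11 attachment genes (72.7%) and both transcription factor genes. Replicate 1 gave 7, 13 and 9 genes of the first 3 classes, and replicate 2 gave 7, 16 and 9. A final region belonged to 1 thick filament gene, 1 thin filament gene and 2 attachment genes, and to neither transcription factor gene.

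The median signal of the strongest region of a gene was 51.4 over the 30 genes with a region (range 33.3 to 120.5), which is 1.19 times the median of 43.2 over the 7678 genes with a region. By class it was 62.8 for thin filament genes (37.8 to 103.6), 48.8 for attachment genes (34.0 to 120.5) and 48.0 for thick filament genes (33.3 to 103.7). Relative to all genes with a region, these medians were 1.45, 1.13 and 1.11 times as high. The order of the classes was not the same in the replicates. In replicate 1 the ratios were 1.30 for thin filament, 1.01 for attachment and 1.07 for thick filament genes, whereas in replicate 2 they were 1.14, 1.30 and 1.32. The ranges of the 3 classes overlap along nearly their whole length. A gene with more regions has more values from which its strongest is taken. Several regions belonged to 16 of the 30 genes, against 2319 of the 7678. Over single regions the median signal was 47.5 for thick filament, 46.3 for thin filament and 43.1 for attachment genes. It was 40.7 over all assigned regions, so the lead of the thin filament genes was not seen region by region. Of the 30 genes, 24 stood above the median of all genes with a region, 11 above the 80th percentile and 4 above the 90th.

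**Figure D2:**
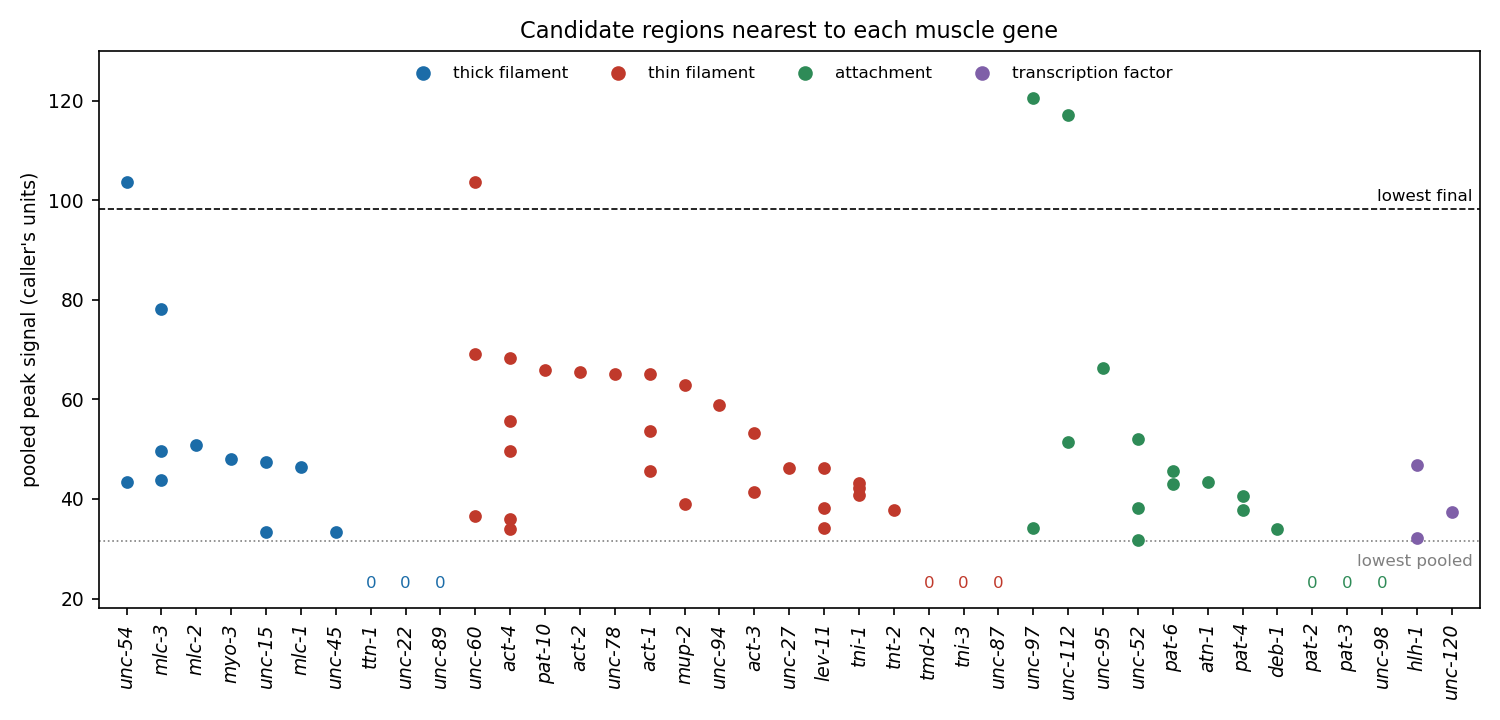
Pooled signal of every candidate region of the 39 muscle genes, in the units of the authors' peak caller and ordered by class. Each point is 1 region, a 0 marks a gene with no region, the dashed line is the lowest final signal (98.3) and the dotted line the lowest pooled signal (31.6). Points of 4 genes lie above the dashed line, and the strongest other region is that of mlc-3 at 78.1.

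Among the thick filament genes the strongest region was that of unc-54, which encodes the major myosin heavy chain of body wall muscle. It spanned chrI:14863412-14863847 on ce11, with its summit in intergenic sequence 148 bp upstream of the 5′ end. Its signal was 103.7 (rank 737) in the pooled list, 65.0 (rank 815) in replicate 1 and 36.9 (rank 868) in replicate 2. The ranks of the replicates lay close together, with replicate 2 just outside its own strongest 830 rows. A weaker region with a signal of 43.3 lay 3001 bp downstream, in a coding exon of unc-54, and was in the list of replicate 1 but not in that of replicate 2.

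The other myosin genes had weaker regions, outside the final list. mlc-3, an essential light chain, had a summit 49 bp downstream of its 5′ end, in the 5′ UTR, with 78.1 (rank 1290) pooled, 48.1 (rank 1508) in replicate 1 and 28.5 (rank 1730) in replicate 2. It had 2 further regions, with signals of 43.9 and 49.7. mlc-2, a regulatory light chain, had 50.8 (rank 3606) pooled, 38.2 (rank 2686) in replicate 1 and 16.3 (rank 9670) in replicate 2, from a summit 375 bp upstream. mlc-1, the regulatory light chain gene that is transcribed away from mlc-2, had 46.4 pooled, 30.2 in replicate 1 and 14.3 in replicate 2, from a summit 15 bp upstream. The 5′ ends of mlc-1 and mlc-2 are 2624 bp apart, and each had its own region close to its own start.

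myo-3 encodes the myosin at the centre of the thick filament. Its region had its summit in an intron 863 bp downstream, with 48.0 (rank 4206) pooled, 29.1 (rank 6062) in replicate 1 and 19.3 (rank 5757) in replicate 2. unc-15, paramyosin, had a region 83 bp downstream of its start, with 47.5 pooled, 31.0 in replicate 1 and 24.8 in replicate 2. unc-45, a chaperone that folds myosin, had 33.3 pooled and 22.7 in replicate 1, and no region in replicate 2, so it stood at the weak end of the class. Thus unc-54 alone of the thick filament genes reached the final list, and the next, mlc-3, was well below it.

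The giant proteins of the thick filament had no pooled region by the rule, and of them unc-89 alone had a region in a replicate list, that of replicate 2. They are unc-89 (obscurin of the M-line), unc-22 (twitchin) and ttn-1 (titin-like), and in these genes much of the length lies far from the annotated 5′ end. Counted over the whole gene, unc-89 held 7 regions, or 1.27 per 10 kb, the same as the 1.27 per 10 kb of the nuclear genome. Its strongest, with 55.2 pooled, 45.9 in replicate 1 and 26.1 in replicate 2, lay 161 bp from the start of another unc-89 transcript. unc-22 held 1 region (0.26 per 10 kb) with 70.9 pooled, 47.1 in replicate 1 and 32.0 in replicate 2. Its summit was 507 bp inside unc-22 and 459 bp from the nearer start of the gene ZK617.26. The start of another unc-22 transcript was closer still, at 380 bp. With the starts of all transcripts counted, unc-22 and unc-89 each had a pooled region. ttn-1, the longest at 81.7 kb, held 1 region with a signal of 33.4 (0.12 per 10 kb).

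Among the thin filament genes the strongest region was that of unc-60, which encodes ADF/cofilin, a protein that severs and turns over actin filaments. It spanned chrV:1474589-1475024 on ce11, with its summit in intergenic sequence 279 bp upstream. Its signal was 103.6 (rank 740) in the pooled list, 64.6 (rank 829) in replicate 1 and 40.2 (rank 718) in replicate 2. Of the 39 genes it was the only one with a region among the strongest 830 rows of both replicates, at the very edge in replicate 1. The 5′ end of unc-60 is shared with the gene F53E2.2, so the regions of unc-60 are as close to that gene. Upstream lay 2 further unc-60 regions, with 69.2 at 2636 bp and 36.6 at 3494 bp.

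unc-78 encodes actin-interacting protein 1, a cofactor of cofilin. Its summit lay 138 bp upstream, with 65.1 (rank 1912) pooled, 34.2 (rank 3647) in replicate 1 and 29.5 (rank 1567) in replicate 2. unc-94, a tropomodulin that caps the pointed ends of thin filaments, had 58.8 pooled, 33.9 in replicate 1 and 22.3 in replicate 2. Its summit was 2382 bp downstream of the 5′ end of the gene but 125 bp from the start of another unc-94 transcript. tmd-2, the other tropomodulin gene, and unc-87, which bundles actin, had no pooled region by the rule.

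The 4 actin genes held 11 of the 27 thin filament regions. act-4 had 5 regions, the strongest with its summit 48 bp upstream and 68.4 (rank 1699) pooled, 43.1 (rank 1961) in replicate 1 and 25.4 (rank 2402) in replicate 2. Its other regions ran from 34.0 to 55.6. A region in an intron 1224 bp downstream, had 36 pooled, 23.6 (rank 11314) in replicate 1 and 34.2 (rank 1055) in replicate 2, so it was strong in replicate 2 and near the floor in replicate 1.

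act-1, act-2 and act-3 lie side by side on chromosome V. act-2 had 65.5 (rank 1886) pooled, 50.8 (rank 1334) in replicate 1 and 17.3 (rank 8022) in replicate 2. The pooled summit was 428 bp upstream, and the summit of the replicate 2 row lay 246 bp from it. The strongest act-1 region lay 2901 bp downstream of the start, beyond the gene, with 65.0 pooled, 41.2 in replicate 1 and 20.4 in replicate 2. The strongest act-3 region lay 1205 bp upstream, with 53.3 pooled, 36.9 in replicate 1 and 16.6 in replicate 2. All 3 ranked higher in replicate 1 than in replicate 2. The actin genes are near-identical copies in their coding sequence, and 1 act-1, 1 act-3 and 2 act-4 regions held 36-base stretches found elsewhere in the genome, down to 75.3% unique stretches in an act-4 region. Of all 55 regions 6 held such stretches. The others were a pat-6 region 938 bp downstream (85.0% unique) and the pat-4 region 3572 bp downstream (99.8%). How the authors treated reads with several matches is not known here.

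The troponin and tropomyosin genes confer calcium control on the thin filament. pat-10, the troponin C of body wall muscle, had its summit in the 5′ UTR 118 bp downstream, with 65.9 (rank 1849) pooled, 46.7 (rank 1625) in replicate 1 and 18.4 (rank 6691) in replicate 2. mup-2, the troponin T of body wall muscle, had 62.8 (rank 2087) pooled, 37.5 (rank 2819) in replicate 1 and 30.1 (rank 1479) in replicate 2. The pooled summit was 36 bp upstream, and the summit of the replicate 1 row lay 201 bp from it. The remaining genes of this group were lower, in the range of 37.8 to 46.3.

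Of those, unc-27, a troponin I, had 46.3 pooled, 24.8 in replicate 1 and 20.7 in replicate 2, with its summit 203 bp upstream. lev-11, tropomyosin, had 46.2 pooled, 25.8 in replicate 1 and 22.5 in replicate 2, with its summit in an intron 1575 bp downstream. tni-1, another troponin I, had 3 intergenic regions between 1250 and 2736 bp upstream, all weak, at 40.7 to 43.2. tnt-2, another troponin T, had 37.8 pooled, 29.9 in replicate 1 and 15.1 in replicate 2. tni-3, a further troponin I, had no pooled region by the rule, although all 16 thin filament genes had a region in the list of replicate 2.

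Among the attachment genes unc-97 had the strongest region of all 39 genes. unc-97 encodes PINCH, a LIM-domain adaptor of integrin attachments. The region spanned chrX:5591780-5592215 on ce11, with its summit in intergenic sequence 1135 bp upstream. Its signal was 120.5 (rank 542) in the pooled list, 89.7 (rank 431) in replicate 1 and 34.1 (rank 1062) in replicate 2. unc-112, which encodes kindlin, an integrin-binding adaptor, had its region at chrV:14696883-14697318 with its summit in intergenic sequence 447 bp upstream. Its signal was 117.1 (rank 570) pooled, 97.4 (rank 355) in replicate 1 and 28.8 (rank 1685) in replicate 2. Both attachment regions stood within the strongest 830 rows of replicate 1 and outside those of replicate 2.

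The LIM-domain gene unc-95, whose product lies at dense bodies and M-lines, went the other way. Its region, in an intron 2413 bp downstream, had 66.3 (rank 1824) pooled, 35.4 (rank 3299) in replicate 1 and 38.0 (rank 813) in replicate 2. unc-52, perlecan of the basement membrane, had its strongest region 144 bp upstream, with 52 (rank 3369) pooled, 27.9 (rank 6869) in replicate 1 and 24.5 (rank 2678) in replicate 2. Over its 37.1 kb the unc-52 gene also held 12 regions of 31.8 to 45.7, or 3.23 per 10 kb, none of them final.

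The remaining attachment genes had weaker regions, or none in the pooled list by the rule. pat-6, parvin, had 45.6 (rank 4891) pooled, 21.7 (rank 14158) in replicate 1 and 23.3 (rank 3132) in replicate 2, with its summit 372 bp upstream. pat-4, integrin-linked kinase, had 40.5 pooled from an intron 3572 bp downstream, with 29.1 in replicate 1 and no overlapping row in replicate 2. Its other region, 434 bp upstream, had 37.8 pooled and 21.3 (rank 4157) in replicate 2, with no overlapping row in replicate 1. So pat-4 had a region in each replicate, but not the same one. The integrin genes themselves, pat-2 (alpha) and pat-3 (beta), had no pooled region by the rule, nor did unc-98, a zinc-finger gene of M-lines and dense bodies. Of these, pat-2 had a region by the rule in the list of each replicate. Of the dense body genes, atn-1 (alpha-actinin) had 43.4 pooled, 22.2 in replicate 1 and 19.4 in replicate 2 at 141 bp downstream. deb-1 (vinculin) had 34.0 pooled and 22.3 in replicate 2, from a coding exon 3581 bp downstream. No row of replicate 1 overlapped that region, although deb-1 had another region by the rule in that list.

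For pat-3 and unc-98 a strong region lay nearby but closer to another gene. A final region with 196.2 (rank 205) pooled, 124.3 (rank 222) in replicate 1 and 79.1 (rank 178) in replicate 2 lay 2698 bp upstream of pat-3 and 120 bp upstream of ccdc-47. A final region with 114.6 (rank 590) pooled, 68.8 (rank 718) in replicate 1 and 44.4 (rank 587) in replicate 2 lay 3726 bp downstream of the unc-98 start and 171 bp upstream of apy-1. Both were among the strongest 830 rows of each replicate, and both were assigned to the neighbouring gene. If every gene with a 5′ end within 5000 bp is counted, pat-3 and unc-98 join the genes with a final region, which then number 6 of 39, against 9.10% of all genes.

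Of the transcription factor genes, hlh-1, the MyoD homologue, had 46.9 (rank 4484) pooled, 28.2 (rank 6676) in replicate 1 and 18.7 (rank 6352) in replicate 2, with its summit 109 bp upstream. It had a weaker region 936 bp upstream, with 32.2 pooled and no counterpart in either replicate list. unc-120, the serum response factor homologue, had 37.4 (rank 8609) pooled and 27.7 (rank 7058) in replicate 1, from a summit 1102 bp upstream. No row of replicate 2 overlapped that region, although unc-120 had another region by the rule in that list. Against the median of 43.2 over all genes with a region, hlh-1 stood slightly higher and unc-120 lower.

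The regions lay mostly upstream of or within the genes. Of the 55 summits, 30 (54.5%) were intergenic, 15 (27.3%) in introns, 6 (10.9%) in coding exons and 4 in 5′ UTRs, with 0 in 3′ UTRs. Places were counted in any protein-coding gene. An mlc-3 summit lay in an intron of rpc-2, and an unc-97 and an act-4 summit in coding exons of mec-2 and M03F4.6. The intergenic act-1 summits 1427 and 2901 bp downstream lay beyond the gene. Over all 10969 assigned regions, 45.6% were intergenic, 29.3% in introns and 18.1% in coding exons. Summits within 500 bp of the 5′ end numbered 21 of 55 (38.2%, 95% Wilson interval 26.5% to 51.4%, counting error only), against 31.5% of all assigned regions, which lies inside that interval. By class the share was 6 of 11 for thick filament, 9 of 27 for thin filament and 5 of 14 for attachment genes. The 21 near regions had a median signal of 50.8 and included 3 final regions, whereas the 34 farther regions had a median of 42.5 and included 1, that of unc-97. Over all assigned regions the medians were 44.4 near the start and 39.6 farther away, with 402 final regions among 3454 near and 321 among 7515 farther, so the same direction was seen genome-wide. The assigned summit farthest from its gene was that of act-4 at 3989 bp (34.0), and those just past the 5000 bp limit were 5197 bp from lev-11 (47.0), 5391 bp from unc-89 (41.1) and 5741 bp from unc-94 (60.1). None of the 55 summits lay within 500 bp of a tRNA, snRNA or snoRNA gene, against 430 (3.92%) of all assigned regions.

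**Figure D3:**
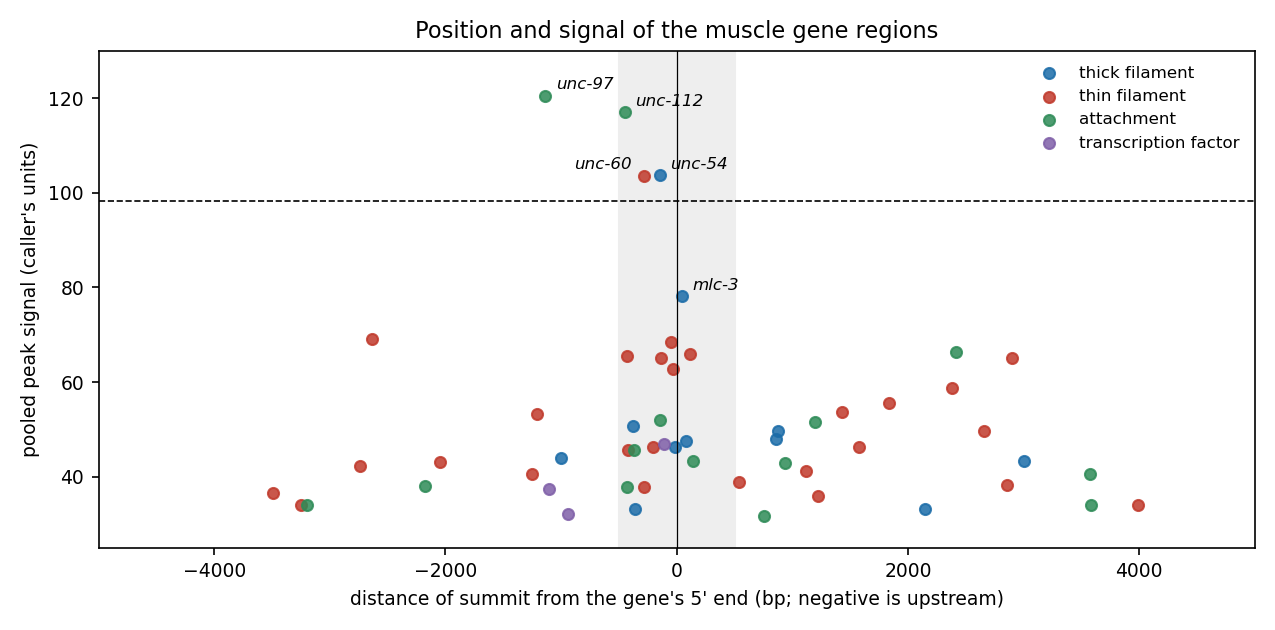
Pooled signal of the 55 regions against the distance of the summit from the 5′ end of its gene in base pairs, with upstream negative. Colours are the classes, grey marks 500 bp on either side of the 5′ end and the dashed line the lowest final signal (98.3). The final regions of unc-112, unc-60 and unc-54 lie upstream within the grey band and that of unc-97 lies 1135 bp upstream.

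Both replicates had a row overlapping 37 of the 55 regions (67.3%), against 50.1% of all assigned regions. A further 10 regions were found in replicate 1 only and 6 in replicate 2 only, and 2 were in neither list, the unc-52 region 2177 bp upstream and the hlh-1 region 936 bp upstream. By class, both lists held 22 of 27 thin filament, 7 of 11 thick filament and 7 of 14 attachment regions. Over the 37 shared regions the Spearman correlation of the replicate signals was 0.32, against 0.56 over the 5491 shared assigned regions. These are correlations across regions that share the 2 libraries and the control, and they are given as descriptions.

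**Figure D4:**
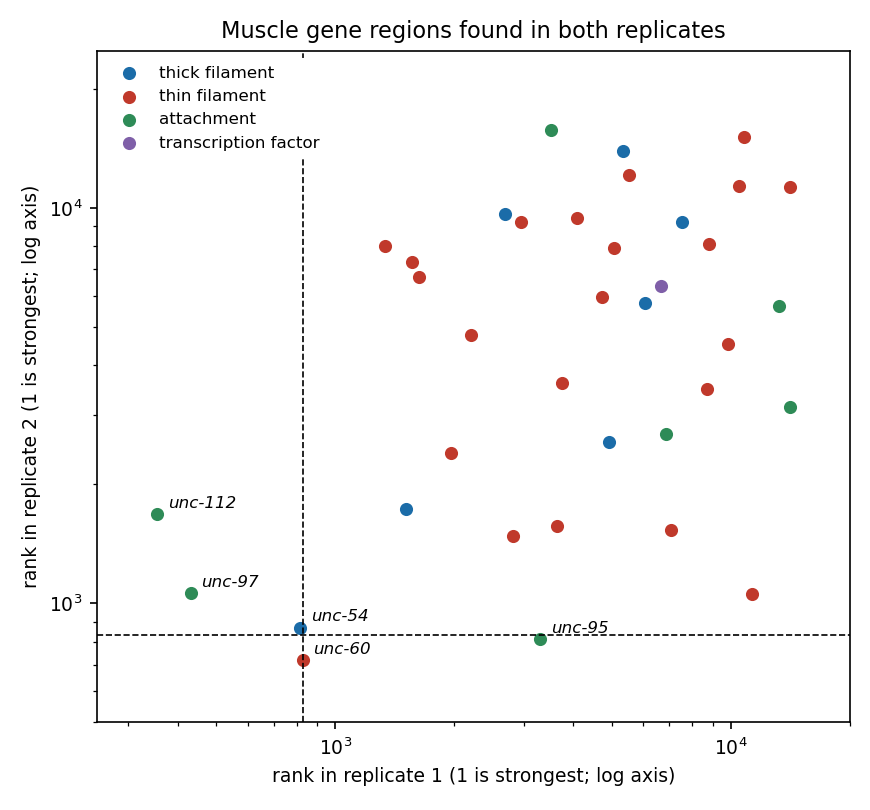
Rank of the 37 regions found in both replicates, in replicate 1 (horizontal) and replicate 2 (vertical), on log axes with rank 1 the strongest. Colours are the classes and dashed lines mark rank 830. unc-60 alone lies inside both lines, unc-54, unc-97 and unc-112 inside that of replicate 1 only, and unc-95 inside that of replicate 2 only.

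In all, 4 other gene lists were described in the same way. Of 31 other body wall muscle genes, 25 (80.6%) had a candidate region and 4 (12.9%) a final region, a profile close to that of the 39 genes. Those with a final region were cap-1, an actin capping protein subunit (163.3 pooled, 164 bp upstream), tln-1, talin (105.8), dyb-1, dystrobrevin (103.1), and lim-8, a LIM-domain gene (100.2), whose intronic summit lay in a tRNA gene. Of 9 pharyngeal muscle genes, 3 (33.3%) had a candidate region, with pha-4 (61.6) and tnt-4 (48.0) the strongest, and 0 a final region, but the share was 55.6% in replicate 1 and 77.8% in replicate 2. Of 9 epidermal attachment genes, 7 (77.8%) had a candidate region, led by ifa-3 (68.7), whose summit also lay in a tRNA gene, and mua-3 (51.5), and 0 a final region. Of 9 non-muscle contractile genes, 5 (55.6%) had a candidate region and 1 a final region, spc-1, alpha-spectrin (132.2 pooled, 77.3 in replicate 1 and 57.6 in replicate 2). Their candidate share was 77.8% in replicate 1 and 100% in replicate 2, where it was above the 87.2% of the muscle genes. The candidate share of the epidermal list was thus as high as that of the muscle genes, but over a longer median stretch, 8090 bp against 5506 bp. Per kilobase the epidermal genes held 0.148 pooled regions, against 0.254 for the muscle genes and 0.127 for all genes. The rate was 0.216 for other body wall muscle, 0.167 for non-muscle contractile and 0.064 for pharyngeal genes. In replicates 1 and 2 the muscle genes held 0.268 and 0.287, and the non-muscle contractile genes 0.204 and 0.260. Other body wall muscle held 0.221 and 0.241, epidermal genes 0.148 and 0.207, and pharyngeal genes 0.113 and 0.145. The gap to the non-muscle contractile genes was thus small in replicate 2. The median strongest signal of the epidermal genes was 0.970 times that of all genes with a region. This ratio was 1.11 for pharyngeal, 1.18 for other body wall muscle and 1.30 for non-muscle contractile genes, against 1.19 for the muscle genes. In replicates 1 and 2 it was 0.97 and 1.12 for epidermal and 1.10 and 1.10 for non-muscle contractile genes. For pharyngeal genes it was 0.91 and 1.01, for other body wall muscle 1.23 and 1.25, and for the muscle genes 1.17 and 1.17. The pharyngeal and non-muscle contractile lists moved by several genes between the pooled and replicate lists.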

How the data were processed

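Anti-GFP ChIP-seq of 2 replicates was used as peak lists on ce11. The authors deposited a loosely called list per replicate, a pooled list and a list filtered by the irreproducible discovery rate, per the metadata texts. The value used is the signal that the authors deposited for each peak. Its place in the format shows it as the caller's score, which other normalization could shift, so ranks were compared. The aligner, the caller and its version, and the reproducibility threshold: not given in the sources used here. The read depth is unknown, so no depth limit can be stated. The ce10 lists were not used here.

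Overlapping rows were merged (at least 1 bp) and each summit was given to the nearest protein-coding 5′ end of Ensembl release 115 within 5000 bp. The member genes and the comparison lists were chosen with earlier results of these data known. All 39 genes were named, with full values for genes with a final region and for the 3 strongest others of each class. Of other genes, those with a final region, or the strongest 2 of a list, were named, and pat-3, unc-98, unc-22 and unc-89 neighbours were named after their values were seen. No p-values were computed: 0 tests were made, since there is 1 group and the control was not analysed here. Intervals are Wilson intervals at 95% and cover counting error only. Python 3.11.15, NumPy 2.4.6, SciPy 1.17.1 and Matplotlib 3.10.9 were used, and the region code was tested on simulated data. Alternatives changed the distance, the transcript set, the overlap rule, the near-start window, the list strictness and the replicates.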

Additional observations from a re-analysis of the deposited data

How the results depend on the processing

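Of 54 values recomputed under 14 settings, 47 stayed within wide limits. For class medians the limit was the standard deviation between the replicates, 0.17 for thick filament, 0.11 for thin filament and 0.21 for attachment genes. Final counts of 3, 5 and 6 and attachment ratios of 1.01 and 1.30 were among the 47. The candidate count was above the all-gene share under every setting run. It ran from 22 of 39 genes within 1000 bp (all genes 24.6%) to 36 when regions inside the gene counted (58.2%). The final count was less stable. It was 4 of 39 with both replicates (all genes 3.50%), 2 without replicate 1 (3.44%) and 4 without replicate 2 (3.54%). In the stronger 50% of the final list (415 rows) it was 0, against 1.74% of all genes. It was 3 within 1000 bp (2.44%), 5 when regions inside the gene counted (7.48%) and 6 with any start within 5000 bp (9.10%). When ties went to the other gene it was 3 (3.50%), a setting chosen after seeing the data, which removes unc-60. Class medians relative to all genes ran, over all settings, from 1.07 to 1.32 for thick filament genes (1.32 without replicate 1), from 1.14 to 1.51 for thin filament genes (1.45 as reported, 1.14 without replicate 1, 1.30 without replicate 2) and from 1.01 to 1.30 for attachment genes. The near-start share was 77.8% when regions were assigned within 1000 bp (all regions 64.7%) and 21.8% when near meant 250 bp (all regions 19.3%), as these windows are built, and 32.8% to 37.1% over the single replicates. The cause of the other shifts was not tested. No paired analysis was possible because there is 1 group and no test. The main limits are 2 replicates, an unnamed signal scale, unknown depth, whole embryos, and a control and an untagged strain that were not analysed here.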
